A study of Mus musculus with 797 samples.

Results

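Glutamatergic nuclei with reads of Foxp2 or Tle4 and almost none of Rorb or Cux2 were described here. There were 95 of them among the 781 nuclei kept, and they made up 24.7% of the 385 glutamatergic nuclei. Members were chosen by their read counts of 7 genes: a nucleus was a member when Slc17a7 had at least 10 CPM (its reads in that nucleus, scaled to a total of 1000000), Gad1 and Gad2 together less than 10 CPM, Foxp2 or Tle4 at least 10 CPM, and Rorb and Cux2 each less than 10 CPM. The other 290 glutamatergic nuclei, which met the Slc17a7 and Gad limits but not the full rule, were the comparison. Because the same nuclei and the same contrast chose the members, differences between members and other nuclei are given as a description, with no test.

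The nuclei came from C57Bl/6J mice that had received, in young adulthood, 1 AAV vector in the PHP.eB capsid at 5e11 vector genomes per mouse. Each vector carried an enhancer or promoter driving a yellow fluorescent histone H2B, and fluorescent nuclei were sorted 3 to 4 weeks later, 1 nucleus per SMART-Seq v4 library. The 797 labelled nuclei fall under 20 vectors of 39 or 40 nuclei each: 16 AiE enhancers, CMV (a viral promoter), hSyn1 (the human synapsin 1 promoter), and hI56i and DLX2.0 (elements of Dlx genes). No label names an animal, so each vector is 1 sample. All groups share the strain, the capsid, the dose and the sort, and no nuclei from uninjected mice were analysed here.

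In the cerebral cortex, glutamatergic neurons differ by layer. The transcription factor Foxp2 and the Groucho-family corepressor Tle4 are known from deep layers, above all from corticothalamic neurons of layer 6, which send axons to the thalamus, whereas Cux2 and Rorb are known from the upper and middle layers. The 6 marker genes of the group also include Pcp4, a small regulator of calmodulin, Garnl3, a protein with a Rap GTPase-activating domain, Col5a1, a fibrillar collagen chain, and Nrp1, a receptor for class 3 semaphorins.

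Every nucleus is labelled striatum. Spiny projection neurons, the principal neurons there, are GABAergic, so the limits on Slc17a7, Gad1 and Gad2 leave them out. Absence of their defining genes from the members was therefore likely in advance. Of 12 such genes, 4 (Drd2, Adora2a, Isl1 and Tac1) were at 0 in all 95 members, which allows a share of up to 3.16%, taking 3 nuclei of 95 as the limit. The other 8 had reads, among them Drd1 in 6.32% of members and 3.10% of the other glutamatergic nuclei, Ppp1r1b in 26.3% and 13.4%, and Pde10a in 70.5% and 81.0%. Transcription factor genes of cortical excitatory neurons were common: Neurod6 was read in 47.4%, Neurod2 in 42.1% and Tbr1 in 45.3% of members, against 1.61%, 0.968% and 2.26% of GABAergic nuclei (Gad1 and Gad2 together at least 10 CPM, Slc17a7 less than 10). The limits on Slc17a7, Gad1 and Gad2 set members and GABAergic nuclei apart, so this contrast was likely in advance and does not single out the members. Tbr1, for example, was also read in 32.8% of the other glutamatergic nuclei. Layer position itself was not measured, so "deep-layer" below refers to marker genes only.

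Depth was alike on both sides. Members had a median of 279900 reads and 2759 genes per nucleus and the other glutamatergic nuclei 278996 reads and 2667.5 genes; GABAergic nuclei had 318172 reads and 3016.5 genes. Libraries carry 1 of 3 prefixes, and those with the prefix AB-S40317 held more mitochondrial reads: 13 of its 27 members had 0.1% or more, against 1 of 58 with AB-S40331. No pair of nuclei had identical counts. A total of 205 index pairs were each used by more than 1 library, 410 libraries in all.

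Foxp2 (chromosome 6, 14901349 to 15441977, mm10) and Tle4 (chromosome 19, 14448150 to 14598051) chose the members, and they did not always occur together. Of the 95 members, 38 had both genes at 10 CPM or more, 11 had Foxp2 only and 46 had Tle4 only. The 49 members with Foxp2 spanned 44.6 to 1880 CPM with a median of 304, and the highest value under the limit was 2.92 CPM. The 84 members with Tle4 spanned 12.3 to 1910 CPM with a median of 205, and the highest value under the limit was 9.08 CPM. Few nuclei therefore lay near the limit for Foxp2, and somewhat more near that for Tle4.

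The limits on Rorb and Cux2 removed 30 nuclei that did have Foxp2 or Tle4, 14 of them by Rorb and 19 by Cux2. Among members, 1 nucleus had a read of Rorb, at 3.3 CPM, and 2 had reads of Cux2, at most 4.4 CPM. The removed nucleus nearest to the Rorb limit had 69.7 CPM, and the nearest to the Cux2 limit 21.6 CPM. Slc17a7, the vesicular glutamate transporter, spanned 61.4 to 2350 CPM in members with a median of 687.

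Tle4 was not restricted to glutamatergic nuclei. It reached 10 CPM in 77 of the 310 GABAergic nuclei (24.8%, exact 95% binomial interval 20.1 to 30), whereas Foxp2 did so in 3 (0.968%, 0.2 to 2.8). Intervals here and below cover counting error only, and reads carry no molecular identifiers.

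**Figure D1:**
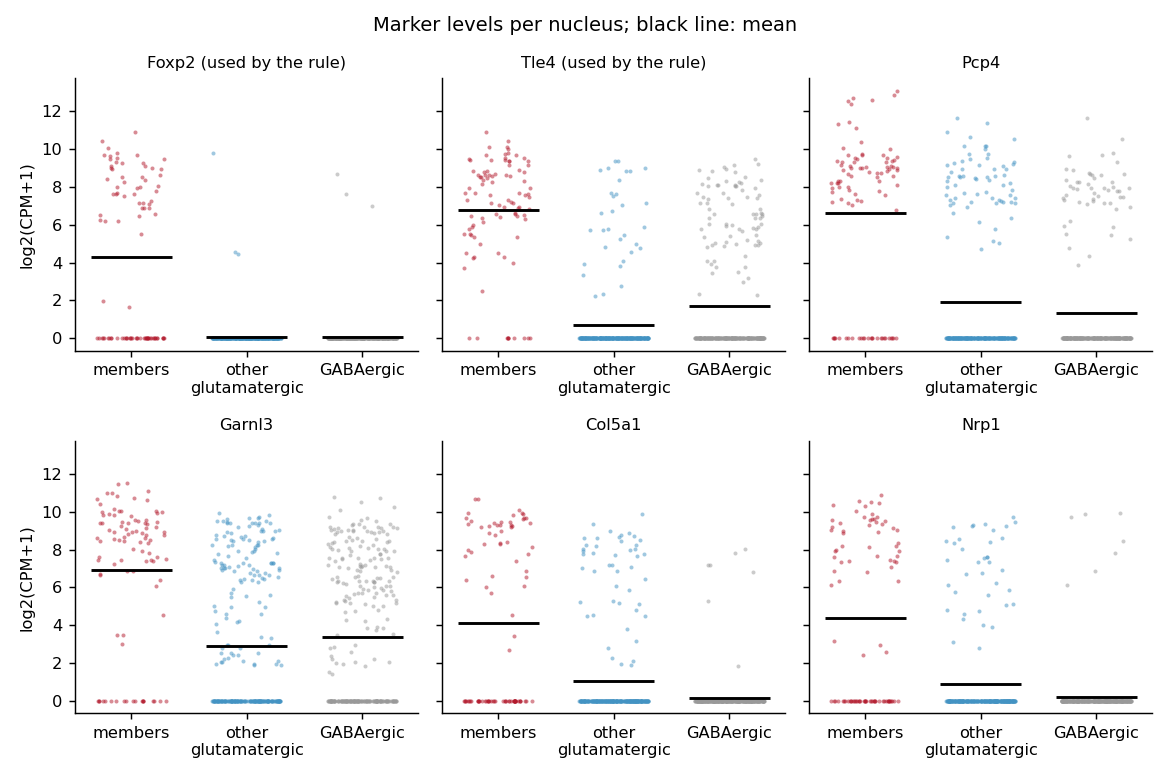
Each point is 1 nucleus and the vertical axis is its level in log2(CPM+1), for the 95 members, the 290 other glutamatergic nuclei and the 310 GABAergic nuclei; black lines are means. Foxp2 and Tle4 were used to choose the members. For Pcp4, Garnl3, Col5a1 and Nrp1 the mean is higher in members, yet members without a read remain for each gene.

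Of the 4 markers the rule did not use, Pcp4 had the largest difference from the other glutamatergic nuclei. Levels are means of log2(CPM+1) over nuclei, differences are members minus other glutamatergic nuclei on that scale, and their spread is the SD of the same difference computed within each of the 9 vectors that had at least 5 nuclei on both sides. Pcp4 (chromosome 16, 96467606 to 96525793) had a level of 6.63 ± 4.28 (SD, 95 nuclei) in members and 1.90 ± 3.55 in the 290 others, a difference of 4.73 with an SD of 2.06 over vectors. It was read in 72.6% of members, 23.1% of other glutamatergic and 17.1% of GABAergic nuclei. In all 9 vectors the members' mean lay above that of the other nuclei. The members' lowest vector mean was 4.92 (AiE0401h), the median 6.29 and the highest 9.18 (AiE0391h), against 0.82, 2.02 and 2.98 for the other nuclei, so the vector means did not overlap.

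Garnl3 (chromosome 2, 32986224 to 33131654) was read in 80.0% of members but also in 44.1% of the other glutamatergic and 50.0% of the GABAergic nuclei. Its level was 6.94 ± 3.81 in members and 2.92 ± 3.66 in the others, a difference of 4.02 (SD 1.48 over 9 vectors). The vector means of members, 3.59 to 9.01, overlapped those of the others, 2.23 to 4.39.

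Nrp1 (chromosome 8, 128358604 to 128503363) was nearer to a present-or-absent pattern. Reads were found in 53.7% of members, 13.1% of other glutamatergic and 2.26% of GABAergic nuclei. The difference was 3.5 (SD 1.83), and the members' vector means ran from 1.99 (AiE0401h) to 7.05 (AiE0387m), above the highest mean of the others, 1.53. With few reads of Nrp1 in the others, these vector means add no separate support, as set out below.

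Col5a1 (chromosome 2, 27886425 to 28039514) differed by 3.06 (SD 2.49) and was read in 49.5% of members, 16.2% of other glutamatergic and 2.26% of GABAergic nuclei. It was the least even of the 4 markers: the 5 members of AiE0779m had no read of it, whereas the members of AiE0078h had a mean of 6.70.

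Over all 6711 genes with a read in at least 20% of the nuclei on either side, 496 (7.39%) were higher in members by at least 1 log2 unit and 206 (3.07%) were lower by as much. These shares are the background for every count below. A gene read in less than 20% of nuclei on 1 side could pass only through the other side, which nearly fixes its direction, so counts over the genes that passed are descriptions and support no direction of a list. For such a gene, agreement of sign over vectors adds no separate support, because the same nuclei are counted. Nrp1, Col5a1, Crym, Tenm1 and Mgat4c are among those that passed only through the members. BC030499, Fam19a1, Lingo2 and Calb1 are among those that passed only through the others. The median difference over the 6711 genes was 0.21, not 0. With differences centred on that median, an alternative chosen after the data had been seen, 296 genes were higher and 330 lower; from summed reads per group, 270 were higher and 280 lower. With no limit on Rorb and Cux2 the counts were 426 and 93. The size of the higher set and its excess over the lower set thus depend on the scale. Within AB-S40331 alone, with 58 members and 185 other nuclei, 537 of 5604 genes (9.58%) were higher and 320 (5.71%) lower.

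Of the 496 higher genes, 404 had the same sign in all 3 library prefixes, as did 182 of the 206 lower genes. In all 9 vectors compared, 98 higher and 49 lower genes kept their sign. The 15 leading genes in each direction, taken from genes of 1 sign in every prefix with at least 10 nuclei on both sides, stayed past 1 log2 unit within AB-S40331 and without AB-S40317. They also stayed past 1 among nuclei with less than 0.1% mitochondrial reads. The leading genes were chosen for the largest differences among the same nuclei, so these outcomes were likely in advance.

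**Figure D2:**
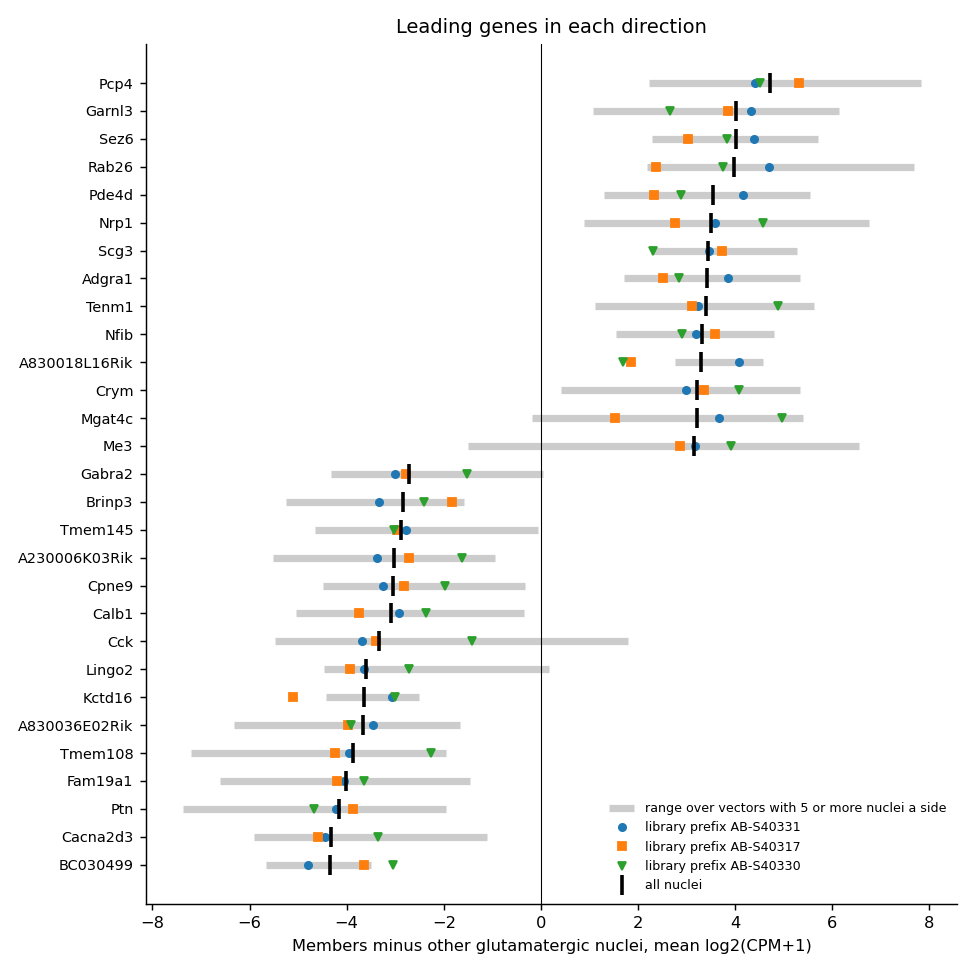
The horizontal axis is the difference between members and other glutamatergic nuclei in mean log2(CPM+1) for 14 of the 15 leading higher genes and the 15 leading lower genes. Black ticks are all nuclei, coloured symbols the 3 library prefixes, and grey bars the range over the 9 vectors with at least 5 nuclei on both sides. Of the 15 genes in each direction, 12 kept 1 sign in every vector; Mgat4c and Me3 are among the higher genes that did not, and Gabra2, Cck and Lingo2 are the lower ones.

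Beside Pcp4, Garnl3 and Nrp1, the genes leading the higher set came from several functions. Sez6, a membrane protein of excitatory synapses and dendrites, differed by 4.01 (SD 1.05 over 9 vectors) and was read in 84.2% of members and 42.8% of the others. Rab26, a small GTPase of vesicle traffic, differed by 3.98 and Pde4d, a cAMP phosphodiesterase, by 3.54. Scg3, a granin of dense-core vesicles, differed by 3.44, the adhesion receptor gene Adgra1 by 3.42, and Tenm1, a teneurin, by 3.40. Nfib, a nuclear factor I transcription factor, differed by 3.32 (SD 0.96) and was read in 89.5% of members.

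Crym, which encodes the thyroid hormone-binding protein mu-crystallin (chromosome 7, 120186380 to 120202111), separated the groups more by presence than by degree. Reads of Crym were in 49.5% of members, 7.24% of other glutamatergic and 0.968% of GABAergic nuclei. The members' vector means ran from 1.28 in AiE0387m to 5.34 in AiE0445h_3xC2, and those of the others from 0.00 to 1.18. Crym passed the limit on reads only through the members, so these vector means add no separate support. The remaining leading genes were A830018L16Rik at 3.30, Mgat4c, of the N-glycan branching enzyme family, at 3.21 and Me3, the mitochondrial malic enzyme gene, at 3.15. Mgat4c and Me3 were read in 52.6% and 72.6% of GABAergic nuclei, so a read of either did not mark the members among all neurons.

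Among the 15 genes leading the lower set, BC030499 (chromosome 11, 78290841 to 78296805) differed by -4.35 (SD 0.76). It was read in 11.6% of members and 60.7% of the other glutamatergic nuclei. Cacna2d3, an auxiliary subunit of voltage-gated calcium channels, differed by -4.32 (SD 1.49) and was read in 21.1% and 70.3%. Ptn, the secreted growth factor pleiotrophin, differed by -4.16 and was read in 29.5% and 72.4%. Fam19a1, a secreted chemokine-like protein gene, differed by -4.02 and was read in 18.9% and 63.4%.

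Kctd16, an auxiliary subunit of GABA-B receptors, differed by -3.64, and its SD over vectors, 0.73, was the smallest of the 15; 61.1% of members still had a read, against 93.1% of the others. Lingo2 differed by -3.60, Cck, the cholecystokinin gene, by -3.34, Calb1, the calcium buffer calbindin, by -3.08 and Gabra2, a GABA-A receptor subunit, by -2.72. Cck had the largest SD over vectors of the 15, 2.21, with vector differences from -5.47 to 1.80. From summed reads every leading difference was smaller: Pcp4 at 2.88, Nrp1 at 3.18, Cacna2d3 at -2.93 and Fam19a1 at -1.69. On that scale A230006K03Rik, at -0.94, was the only leading gene inside 1 log2 unit.

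Spread among single nuclei was large beside these differences. For 3 of the 15 higher and 2 of the 15 lower genes, the difference exceeded the larger of the SDs over nuclei. Counting that ignores strand cannot separate genes that overlap, and the strand setting is unknown: 12 of the 15 higher and 10 of the 15 lower genes overlap another annotated gene, among them Pcp4 with Igsf5 and Nrp1 with Mir1903.

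Marker lists of deep-layer types were examined next. Of the 14 corticothalamic genes, 11 passed the limit on reads, Foxp2 and Tle4 among them, and all were higher in members. Of the 9 that did not choose the members, 8 passed only through the members, so their direction was close to fixed; Garnl3 alone passed on both sides. Their shares of nuclei are the more direct description. Syt6, a synaptotagmin, was read in 29.5% of members and 1.38% of the others, a difference of 1.91. Zfpm2, a GATA cofactor, was read in 27.4% and 1.03%, and Hs3st4, a heparan sulfate sulfotransferase, in 40% and 11.7%. Rprm was read in 24.2% and 5.86%, Grik3, a kainate receptor subunit, in 27.4% and 4.48%, and Thsd7b in 24.2% and 4.83%. Ntsr1 and Sla, also on the list, were read in 3.16% of members each, against 1.38% and 0.345% of the others. Ntsr1 differed by only 0.08, and from summed reads it had 1.54 CPM in members and 1.58 CPM in the others. Gpr139 was read in no member.

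Because 11 of these 12 genes other than Foxp2 and Tle4 were read in less than 50% of members, the number of corticothalamic genes per nucleus was counted after thinning each nucleus to 100000 reads, leaving out the rule's own genes. At least 3 of the 12 remaining genes were read in 63 of 95 members (66.3%, interval 55.9 to 75.7) and in 18 of 288 other glutamatergic nuclei (6.25%, 3.75 to 9.7). The limit of 3 genes was chosen after the values had been seen. The 12 genes include Garnl3 and Col5a1, which are also markers given with the group; without these, a count also added after the values had been seen, at least 3 of 10 genes were read in 38 of 95 members (40%, 30.1 to 50.6) and in 5 of 288 others (1.74%, 0.566 to 4.0). Within AB-S40331 the shares for the 12 genes were 58.6% and 5.46%. GABAergic nuclei reached 3 genes in 2.26%.

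**Figure D3:**
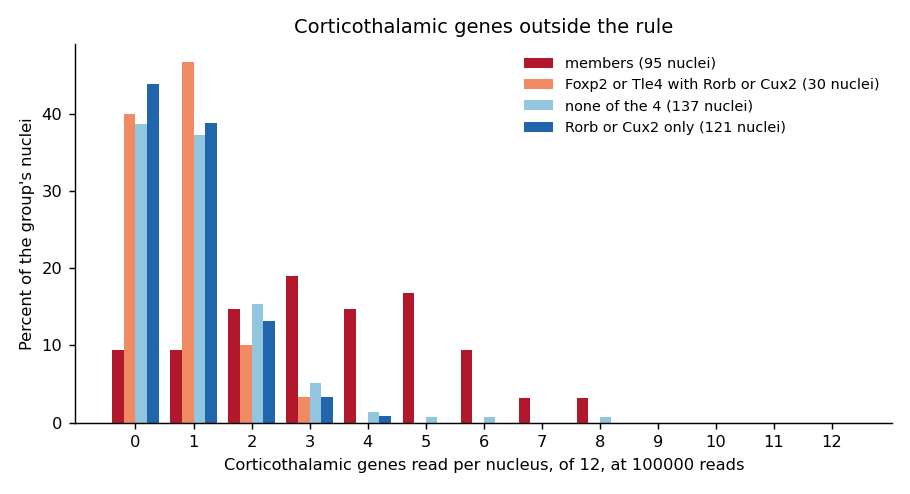
Bars give the percent of each group's nuclei, vertical axis, by the number of the 12 corticothalamic genes read, horizontal axis, at 100000 reads per nucleus. The median is 3.0 genes in members and 1.0 in each of the other 3 groups.

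The other deep-layer lists were read in few members. At least 3 of 8 layer 6b genes were read in 7 members (7.37%), 3 of 7 layer 5 near-projecting genes in 8 (8.42%) and 3 of 8 layer 5 extratelencephalic genes in 8 (8.42%). In the other glutamatergic nuclei these shares were 0.694%, 2.43% and 3.82%. Within AB-S40331 the extratelencephalic share was 1.72% of members and 3.83% of the others, the opposite order. Of the 7 nuclei with layer 6b genes, 5 also reached 3 corticothalamic genes; of the 8 with near-projecting genes, 2 did. Ccn2 and Cplx3, known from layer 6b, were read in 11.6% and 9.47% of members against 2.76% and 1.03% of the others. A total of 52 members reached 3 genes on the corticothalamic list alone, and 23 on none of the 4 lists. By these markers the members did not all reach the same lists. The median member had 3.0 of the 12 corticothalamic genes, which is the limit itself. Whether the members mix cell types was not tested.

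Fezf2 and Bcl11b, transcription factors of deep-layer projection neurons, were the 2 of the 8 layer 5 extratelencephalic genes that passed the limit on reads, both only through the members. The median difference over all 8 genes was 0.08. Fezf2 was read in 36.8% of members, 11.7% of the others and 0.323% of GABAergic nuclei, a difference of 2.14 (SD 1.46). Bcl11b was read in 49.5% of members and 8.97% of the others, a difference of 2.78 (SD 1.68), and in 35.5% of GABAergic nuclei. On the list for claustrum and the Car3 type of layer 6, Synpr, Ntng2, Oprk1 and Osr1 had no read in members. The other 3 genes, Car3, Gnb4 and Nr4a2, had reads. Nr4a2, the only 1 that passed the limit on reads, was read in 25.3% of members and 13.8% of the others. Its difference of 0.96 was not called.

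Of the upper and middle layer genes that did not choose the members, 4 passed the limit on reads and 3 of these were lower. Those 3 passed only through the other nuclei, which nearly fixes that direction. The remaining gene passed on both sides and was not called. Cux1, a homeobox relative of Cux2, differed by -2.47, and Rasgrf2, a Ras exchange factor, by -1.86. Calb1, described above, was the third, read in 10.5% of members and 46.9% of the others. At least 3 of 8 such genes were read in 6 members (6.32%) and in 115 of 288 other nuclei (39.9%).

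**Figure D4:**
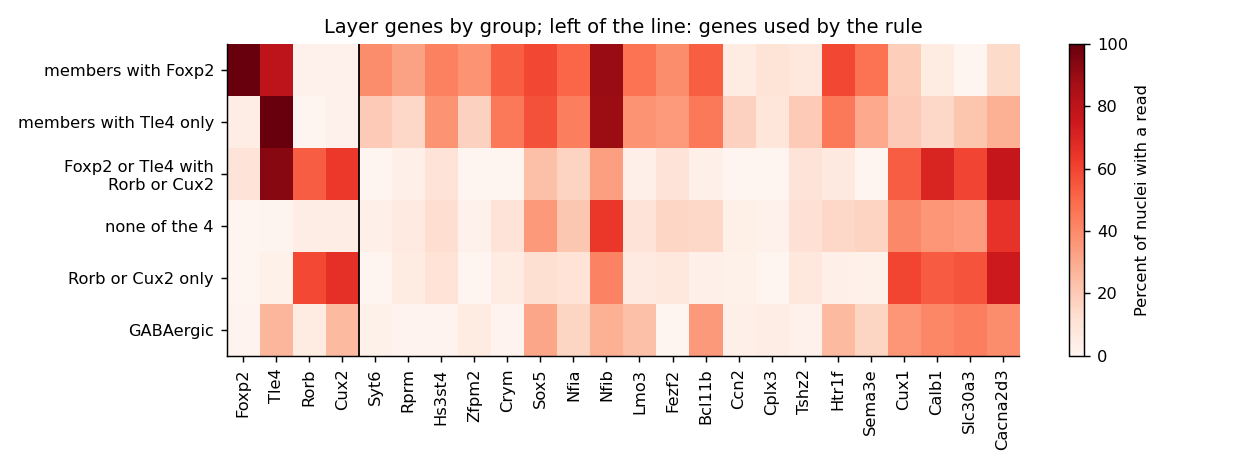
Colour gives the percent of nuclei with a read of each gene, from 0 to 100, in 6 groups; the 4 genes left of the line chose the groups. Syt6 is read in 29.5% of all members, while the nuclei with Foxp2 or Tle4 together with Rorb or Cux2 have none and resemble the upper-layer rows for Calb1 and Cacna2d3.

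Genes common to cortical glutamatergic neurons were kept in part. Of 9 such genes, Tbr1 was higher and 3 were lower, counts of 0 and 4 on the centred scale and 0 and 2 from summed reads. Slc30a3, the zinc transporter of synaptic vesicles, was read in 10.5% of members and 46.2% of the others and differed by -2.69, with the same sign in 9 of 9 vectors. It passed only through the other nuclei, which nearly fixes that direction. Nrn1, a neurite growth factor gene, differed by -1.67, and Arpp21 by -1.07 although it was read in 96.8% of members; both calls were lost from summed reads.

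Of the 30 nuclei with Foxp2 or Tle4 that also had Rorb or Cux2, 28 had a read of Tle4 and 3 of Foxp2. On several genes the rule did not use, these 30 stood with the upper-layer nuclei. Their mean level of Pcp4 was 1.34 and of Nrp1 0.45, and Crym and Syt6 had no read in them. Other genes lay between. Pde4d was read in 70% of the 30, 40.5% of nuclei with Rorb or Cux2 alone and 85.3% of members. For A830018L16Rik these shares were 56.7%, 31.4% and 80%. Only 1 of the 30 (3.33%) reached 3 corticothalamic genes, while 18 (60.0%) reached 3 upper-layer genes. Of the 121 nuclei with Rorb or Cux2 alone, 4.13% and 46.3% did so. Among the 139 nuclei with none of the 4 genes, 12 of the 137 deep enough for thinning (8.76%) reached 3 corticothalamic genes, so the rule left out some nuclei with that profile. All 15 leading genes in each direction were past 1 log2 unit against each of these 3 groups. The 3 groups make up the comparison nuclei from which the leading genes were chosen, so this was likely in advance.

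At least 3 corticothalamic genes were read in 40 of the 49 members with Foxp2 (81.6%, interval 68.0 to 91.2) and in 23 of the 46 with Tle4 only (50.0%, 34.9 to 65.1). Without Garnl3 and Col5a1 the counts were 24 of 49 (49.0%, 34.4 to 63.7) and 14 of 46 (30.4%, 17.7 to 45.8). All of these intervals count nuclei pooled over vectors, so a difference between the subsets was not tested by either count. At least 3 upper-layer genes were read in 0 of 49 and in 6 of 46 (13%). Of the 23 members that reached none of the 4 deep-layer lists, 16 had Tle4 only. Median depth was 279300 reads for Tle4 only, 303069 for Foxp2 only and 285844 for both.

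Nrp1 had the largest positive difference between these subsets of all named genes other than Foxp2: its level was 5.90 with Foxp2 and 2.80 with Tle4 only. Garnl3 followed at 8.11 and 5.70, Grm8, a metabotropic glutamate receptor, at 4.21 and 2.11, and Pcp4 at 7.55 and 5.65. Ptn was lower with Foxp2, at 1.13 against 3.43, and so were Fam19a1, at 0.64 against 2.84, and Rasgrf1, at 2.75 against 4.95. Crym and Nfib hardly separated the subsets, at 3.88 against 3.69 and 6.97 against 6.89. Across 6934 genes, 448 (6.46%) were higher and 552 (7.96%) lower with Foxp2 by at least 1. Of the 15 leading higher genes, 14 were further out with Foxp2, 9 of them by at least 1; of the 15 lower genes, all 15 were, 8 by at least 1. Members with Tle4 only were still past 1 from the other glutamatergic nuclei for all 30 genes, which these members had helped to choose.

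Transcription factors of pallial neurons gave 8 higher and 2 lower of 20 genes that passed the limit on reads, 7 and 3 on the centred scale and 9 and 3 from summed reads; 5 of the 8 passed only through the members. Beside Nfib, Bcl11b and Fezf2, the higher genes included Lmo3, a LIM-only cofactor, read in 42.1% of members and 7.93% of the others, and Sox5, an SRY-box factor of deep-layer neurons, read in 57.9% and 24.5%. Nfia was read in 47.4% and 16.2%. Tbr1, a T-box factor, differed by 1.07, a call that was lost on the centred scale and from summed reads. Mef2c differed by -1.32. In the Foxp and Tle families only Foxp2 and Tle4 themselves were called; Foxp1 differed by 0.05 and was read in 84.2% of members. Tle2, another Groucho-family gene, differed by -0.67, and by -1.23 from summed reads.

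Guidance and adhesion genes showed both directions. Of 6 semaphorin receptor genes, Nrp1 and Plxna2 were higher; Plxna2 differed by 1.68 and was inside 1 from summed reads. Plxnd1, a plexin, was read in 3.16% of members and 22.4% of the others, a difference of -0.91 that passed 1 on the other 2 scales. Among 7 semaphorin genes Sema3e and Sema4a were higher. Sema3e, a secreted ligand of Plxnd1, was read in 38.9% of members and 8.97% of the others. It differed by 2.33 (SD 0.79), with the same sign in 9 of 9 vectors. Sema3e passed only through the members, which nearly fixes that direction. Sema4a differed by 1.02 and lost its call on both other scales.

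Of 17 Slit, netrin and ephrin genes, 2 were higher and 4 lower. Unc5d, a netrin receptor known from upper-layer neurons, was read in 9.47% of members and 49.0% of the others and differed by -2.57. Epha4, an ephrin receptor, differed by -2.14, Slit3, a secreted guidance ligand, by -1.28, and Ephb1 by 1.49. Unc5d passed only through the others and Ephb1 only through the members, which nearly fixes those directions. The counts were 1 and 6 on the centred scale, and 1 and 7 from summed reads. Of 14 cadherin genes 3 were higher and 4 lower, 2 and 2 from summed reads. Cdh18 was read in 48.4% of members and 8.28% of the others, a difference of 2.88 with 1 sign in 9 of 9 vectors. It passed only through the members, which nearly fixes that direction. Cdh12 and Cdh10 differed by -2.28 and -2.04, and both calls were lost from summed reads.

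Most matrix and heparan sulfate genes were read too rarely to be compared. Of 5 collagen and matrix genes 3 were higher, Col5a1, Thsd7b and Col6a1; the call of Col6a1, at 1.02, was lost on the centred scale. Of 9 heparan sulfate genes 2 were higher, Hs3st4 at 1.96 and Hs3st2 at 1.45, both sulfotransferases; the counts higher and lower were 2 and 1 on the centred scale and 3 and 1 from summed reads. All 5 higher genes of both lists passed only through the members. The median differences over all 22 and all 19 listed genes were 0.02 and 0.03.

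Calcium and Ras signalling genes were mixed. Of 25 calcium and calmodulin genes 5 were higher and 4 lower, but 2 and 5 on the centred scale, and 2 and 1 from summed reads. Pcp4 led the higher ones; Camk2n1, an inhibitor of CaMKII, differed by -2.56, and Camk2d, a CaMKII subunit whose call was lost from summed reads, by -1.94. Of 19 Rap and Ras regulators 2 were higher and 3 lower: Garnl3 led the higher, and Rasgrf1, a Ras exchange factor, was lower with a difference of -2.04. From summed reads the counts were 1 and 2, without Rasgrf1.

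Receptor and channel genes gave counts in both directions, and most members of each list were not called. Of 16 glutamate receptor genes 4 were higher and 3 lower, 2 and 2 from summed reads. Grm8 was read in 41.1% of members and 14.8% of the others, a difference of 2.01 (SD 0.73), whereas Grm7, another group III metabotropic receptor, differed by -2.65. Grm8 passed only through the members, which nearly fixes its direction. Gria3, an AMPA receptor subunit, differed by 2.17 and Gria4 by -2.22, and both calls were lost from summed reads. Of 12 GABA receptor genes, Gabra2 was lower and Gabrb1, at 1.09, higher; the call of Gabrb1 was lost on both other scales.

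Of 27 potassium channel genes 5 were higher and 3 lower, 3 and 2 from summed reads. Kcnk1 and Kcnk2, leak channel genes, differed by 1.79 and 1.75, and Kcnq5, an M-current subunit, by -2.16. Of 18 genes of sodium, calcium and related channels 4 were lower, among them Cacna2d3 and Cacna1g, a T-type calcium channel, at -1.82. Cacna1g was read in 14.7% of members and 40.3% of the others. It passed only through the others, which nearly fixes that direction. Cacng3, an AMPA receptor auxiliary subunit kept on that list, differed by -2.15. Among 8 neuromodulator receptor genes that passed, Htr1f, a serotonin receptor, was read in 52.6% of members and 9.31% of the others and differed by 3.01 (SD 1.25), with the same sign in 9 of 9 vectors. Chrna4, a nicotinic receptor subunit, differed by 2.06, and Crhr1, the receptor for corticotropin-releasing hormone, by -1.39. Htr1f and Chrna4 passed only through the members and Crhr1 only through the others, which nearly fixes those directions.

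Markers of other cell types were partly read in members: 7 of 12 GABAergic, 5 of 6 astrocyte and 3 of 5 oligodendrocyte genes had a read in at least 1 member. Gad1 and Gad2 were at 0, although the rule allowed some reads, and so were Dlx1, Dlx6os1 and Lhx6. Sst, an interneuron peptide gene, was read in 22.1% of members, 5.86% of the other glutamatergic and 39.4% of GABAergic nuclei. The summed level of the 12 GABAergic genes ran from 0.0 to 1180 CPM in members, with a median of 0.0, against a median of 4740 CPM in GABAergic nuclei. Pdgfra, Cspg4 and Olig2 of oligodendrocyte precursors had no read in members, nor did Aqp4 of astrocytes or Mog and Mag of oligodendrocytes. Mbp of oligodendrocytes was read in 29.5% of members and 23.1% of the others, and Aldoc of astrocytes in 21.1% and 18.6%. The summed level of the 6 astrocyte genes reached 1410 CPM in members and 3110 in the others, and that of the 5 oligodendrocyte genes 3340 and 4620 CPM, with medians of 0.0 on both sides. Their part in the differences was not tested.

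Cytoplasmic RNA was somewhat higher in members by the mean of 4 genes, but not for every gene. The mean level of Rplp0, Rps3, Eef1a1 and Actb was 3.67 ± 2.33 (SD, 95 nuclei) in members and 2.92 ± 2.28 in the other nuclei, and 3.13 against 2.53 within AB-S40331. Actb differed by 1.58 and Eef1a1 by 1.16, and neither was past 1 from summed reads. Eef1a1 also lost its call on the centred scale. Rps3 differed by 0.59 and Rplp0, in the opposite direction, by -0.34. Immediate early genes, which follow recent activity, had means of 3.03 ± 1.98 and 3.08 ± 2.15, and none of 6 was called. The part of cytoplasmic RNA in the differences above was not tested.

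Members were found under all 20 vectors. In the 14 vectors with at least 10 glutamatergic nuclei, their share of glutamatergic nuclei ran from 7.14% (AiE0475m, 1 of 14) to 35.5% (AiE0140h, 11 of 31), with a median of 24.8%. Each of the 14 exact 95% intervals held the overall share of 24.7% (20.4 to 29.3). That share includes each vector's own nuclei, and the intervals cover counting error only. With 1 sample per vector, differences between vectors were not tested. By prefix the shares were 27.6% for AB-S40317, 22.7% for AB-S40330 and 23.9% for AB-S40331, and within AB-S40331 the 11 vectors with enough nuclei ran from 10% to 33.3%.

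**Figure D5:**
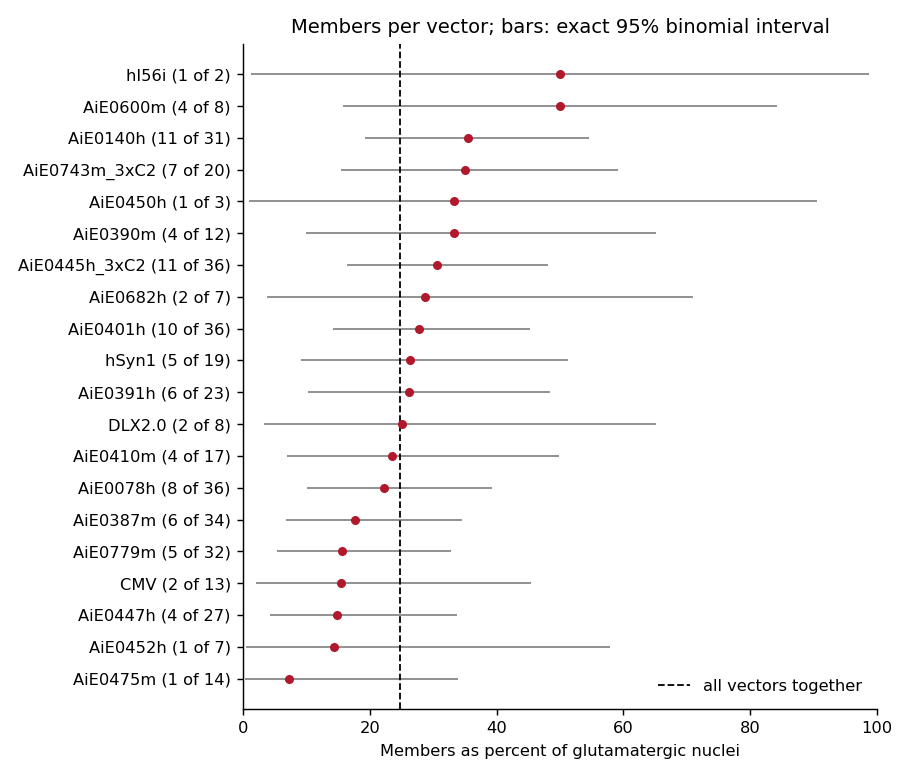
The horizontal axis is the percent of a vector's glutamatergic nuclei that were members, with the exact 95% binomial interval; counts stand beside each vector's name and the dashed line is the overall 24.7%. Every interval crosses the line, including those of the vectors with fewer than 10 glutamatergic nuclei.

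The largest numbers of members came from AiE0140h and AiE0445h_3xC2, with 11 each, and AiE0401h, with 10. Glutamatergic nuclei numbered 31 of 40 kept, 36 of 40 and 36 of 40 for these vectors. The vector hI56i, with 2 glutamatergic nuclei of 39, contributed 1 member, and AiE0600m, with 8 of 38, contributed 4. Those 4 members of AiE0600m all had Tle4 only, whereas 5 of the 6 members of AiE0391h had Foxp2. AiE0391h also had the highest mean of Pcp4 and of Garnl3 among the members of the 9 vectors compared; with 6 nuclei from 1 sample, no vector effect can be tested.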

How the data were processed

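Per the labels' protocols, 1 sorted nucleus was used per SMART-Seq v4 and Nextera XT library. What the authors deposited are whole-number counts of reads by gene and nucleus; STAR 2.7.2a and mm10 are named per the submitters' processing notes. For the counter, annotation, strand setting and handling of introns, nothing is given in the sources used here, and nuclei hold unspliced RNA, so long genes could be affected. Of 2501 columns, 797 were matched by library name; 1704 were not used. Nuclei under 50000 reads or 1000 genes (16) were left out. Libraries held 8712 to 666436 reads, median 290674. Rows without a symbol held 0.0931% of reads. Counts were scaled to CPM and log2(CPM+1) (Python 3.11.15, numpy 2.4.6, pandas 2.3.3, scipy 1.17.1), and the steps were tested on simulated data. Gene positions are from GENCODE on mm10. No doublet caller was run, with 1 sorted nucleus per library. The members and the gene lists were chosen with earlier results of these data known. Named genes are the 6 markers, the 15 largest differences each way with 1 sign in every prefix, up to 4 genes per list and every layer 6 and 6b gene, beside marker genes named for having no read; Sox5, Nfia, Mef2c, Neurod2 and Neurod6 were added after their values were seen. Mitochondrial genes and the rule's genes were left out of the leading genes. Intervals are Clopper-Pearson. A few genes are not reported here.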

Additional observations from a re-analysis of the deposited data

How the results depend on the processing

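No paired analysis was possible because replicate numbers only number nuclei within a vector, no label ties nuclei across vectors and no test was run. Leaving out each vector in turn gave 84 to 94 members, a share of 23.7% to 25.5%, 399 to 587 higher and 187 to 242 lower genes. With no limit on Rorb and Cux2 the share was 32.5% and 93 genes were lower. Asking for both Foxp2 and Tle4 left 38 members (9.87%) and 951 higher genes. AB-S40331 alone held 58 members, with 320 lower genes. A pseudocount of 10 gave 120 higher and 66 lower genes. Averaging over vectors gave 836 higher genes, and summed reads 270. Centring on the median gave 296 higher and 330 lower genes. Why the counts moved with these settings was not tested. The 15 leading genes in each direction stayed past 1 under each alternative run, except A230006K03Rik from summed reads, and no named gene that was called changed sign. As the leading genes were chosen by the size of the same difference, this was likely in advance. Limits of 1 and 50 CPM, thinning, deeper nuclei and fewer mitochondrial reads kept the numbers of members and of higher and lower genes within 1.5 times. Depth per nucleus limits low genes: with 3 nuclei of 95 as the limit, a gene with no read in members may be read in up to 3.16% of such nuclei.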

Other observations

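A few genes outside the named lists stood out among the higher genes and were chosen after their values were seen. Ighm, the constant region gene of immunoglobulin M, was read in 36.8% of members, 3.45% of the other glutamatergic and 2.26% of GABAergic nuclei, a difference of 2.82 in mean log2(CPM+1), and 3.43 within AB-S40331. Gadd45a, a stress and growth arrest gene, was read in 40% of members and 5.52% of the other glutamatergic nuclei. Igfbp4, a binding protein for insulin-like growth factors, was read in 46.3% and 13.1%, and its level was higher with Foxp2 than with Tle4 only by 2.37. Ighm, Gadd45a and Igfbp4 passed the limit on reads only through the members, which nearly fixes their direction. Vxn was read in 64.2% of members, 29% of the other glutamatergic and 2.90% of GABAergic nuclei, and Nptx1, a neuronal pentraxin, in 57.9%, 29.7% and 2.90%.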
